A study of Mus musculus with 4 samples.

Results

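Aminoacyl-tRNA synthetases are the enzymes that load each amino acid onto its tRNA. The 37 mouse genes described here encode 20 enzymes or subunits of the cytosol and 16 of mitochondria, whose symbols end in 2, with Tarsl2, a threonyl-tRNA synthetase-like gene, counted in neither group. They were looked up by symbol among 4544 peaks of the transcription factor ATF4, a factor whose bound DNA was recovered with an antibody and sequenced (ChIP-seq) from regulatory T cells. A gene was given the promoter peaks assigned to it by the authors, and any peak assigned to a neighbour with a base within 1 kb of one of its annotated starts. By that rule the members held 19 promoter peaks at 15 genes, 14 of them cytosolic and 1 mitochondrial.

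The study immunoprecipitated ATF4 from CD4+CD25+ T cells of mice in 2 samples and kept 2 input samples. CD25 marks regulatory T cells, and activated conventional T cells carry it as well. Per the labels, cells were fixed in 1% formaldehyde for 10 min. The labels name no genotype, strain, treatment or age, and they give spleen as the tissue where the series' design adds lymph nodes. The result used here is 1 peak list on build mm10 with no values per sample, so no value below has a replicate error, the read depth is unknown, and no comparison below was tested. Each fold enrichment (ChIP signal at the summit of a peak over its background) and each −log10 q (the significance of the peak, higher for a smaller q) is the authors' value for that peak. Of the 6 regulatory T cell marker genes looked up, Foxp3, Il2ra, Ctla4 and Ikzf2 had promoter peaks, with fold enrichments up to 5.47, and Cd4 and Cd3e had none. Of 8 markers of B cells, myeloid cells and NK cells, 0 had one. Over all protein-coding genes 13.2% had a promoter peak by the same rule, so counts on lists this short do not establish cell identity.

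ATF4 is made when the kinases that phosphorylate eIF2α are active, among them GCN2, which responds to uncharged tRNA. As a dimer with C/EBP proteins or other leucine zipper factors it binds the C/EBP-ATF response element, and cytosolic synthetase genes are among its known targets in other cells. Mitochondrial synthetases charge the tRNAs that read the mitochondrial genome and, apart from the glycyl and lysyl enzymes, come from genes of their own.

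Promoters in which a peak summit and a C/EBP-ATF match both fell are shown first. The window runs from 250 bases before the RefSeq start of the gene to 30 after it, 5′ to 3′ on the strand of the gene. Capitals mark matches to TGATGNAA, the core of the C/EBP-ATF element, or to its reverse complement, which ends in CATCA. The 4 genes are among the 5 cytosolic ones whose peak summit fell inside the RefSeq promoter window.
Yars: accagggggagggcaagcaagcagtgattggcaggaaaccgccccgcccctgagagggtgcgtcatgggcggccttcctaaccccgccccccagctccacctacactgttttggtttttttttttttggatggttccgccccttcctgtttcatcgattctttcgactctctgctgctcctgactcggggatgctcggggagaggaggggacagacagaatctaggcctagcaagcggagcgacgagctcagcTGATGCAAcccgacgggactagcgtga
Iars: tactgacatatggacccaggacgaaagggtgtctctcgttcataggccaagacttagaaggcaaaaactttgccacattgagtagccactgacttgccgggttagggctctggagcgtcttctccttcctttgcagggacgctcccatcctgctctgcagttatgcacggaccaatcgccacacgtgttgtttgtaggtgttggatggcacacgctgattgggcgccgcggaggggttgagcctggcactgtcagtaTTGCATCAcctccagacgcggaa
Gars: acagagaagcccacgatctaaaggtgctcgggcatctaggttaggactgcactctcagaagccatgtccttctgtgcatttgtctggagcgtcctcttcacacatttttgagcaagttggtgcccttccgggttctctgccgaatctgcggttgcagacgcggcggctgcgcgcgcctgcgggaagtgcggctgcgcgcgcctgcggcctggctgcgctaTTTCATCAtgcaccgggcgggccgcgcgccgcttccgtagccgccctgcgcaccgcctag
Tars: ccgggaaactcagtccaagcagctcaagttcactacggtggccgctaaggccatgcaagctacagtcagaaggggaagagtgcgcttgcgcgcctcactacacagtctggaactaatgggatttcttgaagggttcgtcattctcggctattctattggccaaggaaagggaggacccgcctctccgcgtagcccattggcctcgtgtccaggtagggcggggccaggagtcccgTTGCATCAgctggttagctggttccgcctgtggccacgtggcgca
On mm10 these stretches lie at chr4:129189653-129189932 (+ strand), chr13:49681880-49682159 and chr6:55037751-55038030 (+ strand) and chr15:11399629-11399908 (− strand).

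Set in the orientation of TGATGNAA, their 4 matches compare as follows, each with 11 bases on either side.
Yars: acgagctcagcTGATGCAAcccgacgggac
Iars: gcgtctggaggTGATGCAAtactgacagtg
Gars: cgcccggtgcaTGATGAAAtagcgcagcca
Tars: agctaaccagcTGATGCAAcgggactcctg
The matches of Yars, Iars and Tars read TGATGCAA, and that of Gars reads TGATGAAA. On mm10 the match of Yars lay on chromosome 4 at 129189906 to 129189913. Those of Iars, Gars and Tars lay on chromosome 13 at 49682137 to 49682144, on chromosome 6 at 55037971 to 55037978 and on chromosome 15 at 11399666 to 11399673.

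ATF4 peaks were frequent at cytosolic synthetases. Of 20 cytosolic genes, 14 had a promoter peak, or 70.0% (exact Clopper-Pearson 95% interval 45.7 to 88.1, counting error only). Over all 21887 protein-coding genes the share under the same rule was 13.2% (expression was not measured here, so unexpressed genes count in it). Of 16 mitochondrial genes, 1 had a promoter peak, or 6.25% (0.158 to 30.2), and the background of 13.2% lies within that interval. With the peaks the authors assigned to each gene alone, the counts were 13 of 20 and 1 of 16 beside a background of 11.3%. Tarsl2 had no peak within 3 kb of its start.

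For 16 amino acids both a cytosolic and a mitochondrial gene were among the members, with Eprs, which charges glutamate and proline, standing for both of those. For 13 of them the cytosolic gene had a promoter peak and the mitochondrial gene had none. Phenylalanine was the 1 amino acid with the reverse, since Fars2 had a peak and the genes of the cytosolic enzyme's subunits, Farsa and Farsb, had none. The peak of Fars2 was weak, with a −log10 q of 1.07. Histidine and arginine had a peak at neither gene. For 0 of the 16 did both genes have one. Only 1 of 16 mitochondrial genes had a promoter peak at all, beside 13.2% of all protein-coding genes. The counts by amino acid therefore add little to the counts per group.

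**Figure D1:**
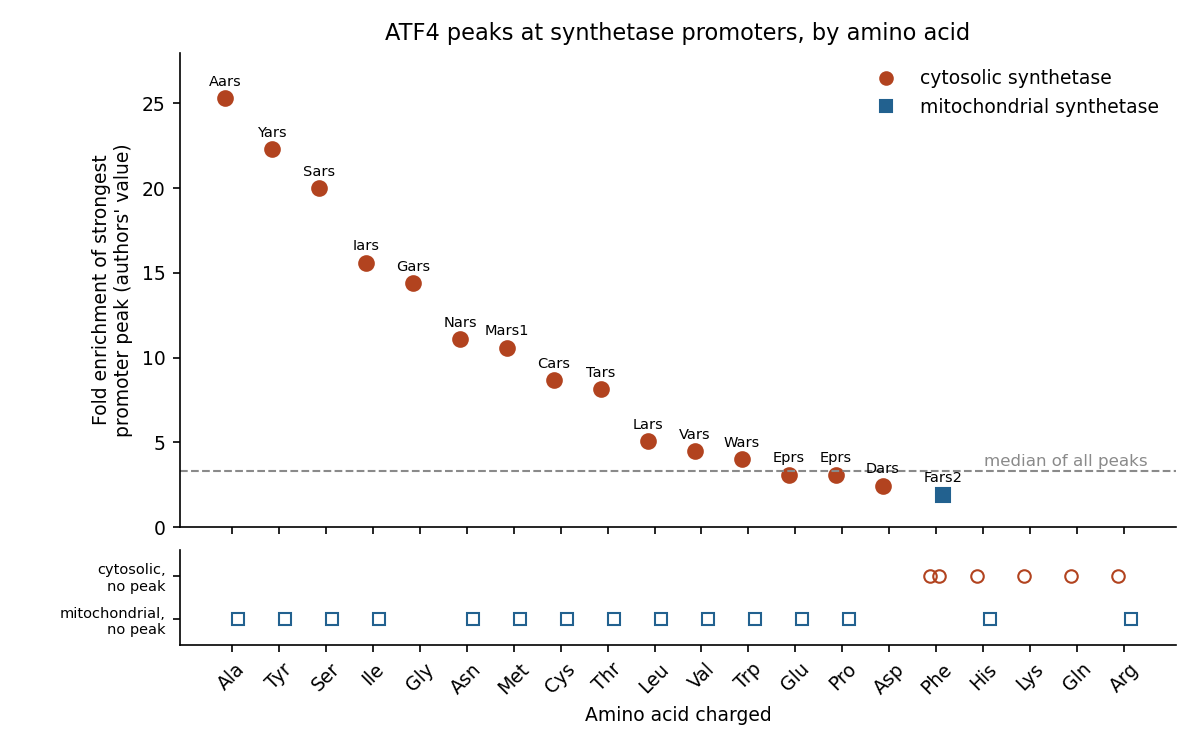
Fold enrichment of the strongest promoter peak of each gene (vertical axis) by the amino acid its enzyme charges (horizontal axis), with circles for 20 cytosolic and squares for 16 mitochondrial genes; open symbols in the lower strip are genes with no promoter peak, and Eprs is drawn at both of its amino acids. Cytosolic genes reach 25.3 and 12 of them lie above the median of all peaks at 3.30 (dashed), while the 1 mitochondrial square, Fars2, lies at 1.91.

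The peaks at cytosolic genes were also strong. Taking the strongest promoter peak of each gene, fold enrichment ran from 2.44 to 25.3 over the 14 cytosolic genes with a median of 9.65. Over all 2882 protein-coding genes with a promoter peak the median was 3.23, with quartiles of 2.68 and 4.04. Of the 14, 11 lay above that upper quartile, Yars and Vars among them only through peaks assigned to neighbours. With the peaks the authors assigned to each gene alone, 9 of 13 did, and the cytosolic median was 8.66. By −log10 q the cytosolic genes ran from 3.06 to 542, beside a median of 6.96 over all genes with a promoter peak. Among the 455 strongest peaks of the list, which had a fold enrichment of at least 5.34, 9 of 20 cytosolic genes and 0 of 16 mitochondrial genes had a promoter peak, beside 1.41% of all protein-coding genes. The count of 0 has an exact 95% interval up to 20.6%.

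**Figure D2:**
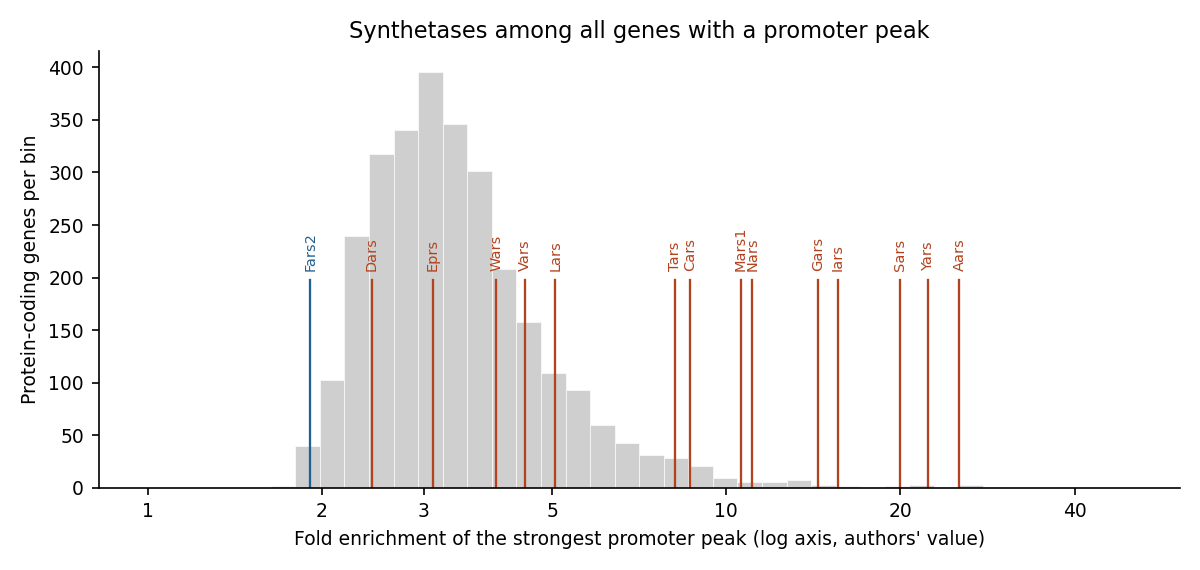
Number of protein-coding genes (vertical axis) by the fold enrichment of their strongest promoter peak (horizontal log axis), over the 2882 genes that had one; lines mark the 14 cytosolic synthetase genes and, at 1.91, the mitochondrial gene Fars2. From Tars at 8.14 upwards, 9 cytosolic genes stand in the sparse upper end of the distribution.

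Aars, which encodes alanyl-tRNA synthetase, had the strongest peak of the family and the 9th strongest of the list. Its fold enrichment was 25.3 with a −log10 q of 542 (chromosome 8, 111033526 to 111033994). The summit lay 59 bp downstream of the start of the transcript to which the authors assigned it, and 4 bases from the nearest C/EBP-ATF match in its promoter window. Counted from the RefSeq start of Aars that match spans positions −112 to −105, so the summit lies upstream of the RefSeq start.

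Yars, for tyrosyl-tRNA synthetase, ranked 14th through a peak that the authors assigned to its neighbour S100pbp (chromosome 4, 129189663 to 129190136). Fold enrichment was 22.3 and −log10 q 410. The nearest annotated starts of the pair are 238 bp apart. The summit lay 1 bp from the RefSeq start of Yars and 2 bases from its TGATGCAA, which spans positions 4 to 11 counted from that start.

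Iars and Gars also had a match at or near the summit, but in the reverse orientation to that of Yars. Counted from the RefSeq start, it spans positions 8 to 15 at Iars and −30 to −23 at Gars. Iars, for isoleucyl-tRNA synthetase, had a fold enrichment of 15.6 and a −log10 q of 165 (chromosome 13, 49681889 to 49682321), and its summit lay inside the match. Gars encodes glycyl-tRNA synthetase for cytosol and mitochondria alike. Its main peak had a fold enrichment of 14.4 and a −log10 q of 150 (chromosome 6, 55037778 to 55038212), with the summit 3 bases from TGATGAAA. A second Gars peak of 6.48 had its summit 971 bp into the gene. Tars, for threonyl-tRNA synthetase, had 8.14 with a −log10 q of 60.8 (chromosome 15, 11399429 to 11399937) and a summit 2 bases from TGATGCAA.

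Sars, for seryl-tRNA synthetase, stood apart by position. Its peak ranked 16th at a fold enrichment of 20.0 and a −log10 q of 178 (chromosome 3, 108443974 to 108444392), yet began 867 bp into the gene, with the summit 1053 bp from the start. The RefSeq promoter window of Sars neither overlapped the peak nor held a TGATGNAA. The sequence under this peak was not analysed here.

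The other strong peaks were those of Nars, Mars1 and Cars, for the asparaginyl, methionyl and cysteinyl enzymes. Nars had 11.1 with a −log10 q of 82.7 (chromosome 18, 64516255 to 64516828). Mars1 had 10.6 with 126 (chromosome 10, 127311375 to 127311892), and Cars had 8.66 with 107 (chromosome 7, 143599830 to 143600296). All 3 peaks overlapped a start. The Mars1 summit lay 138 bp downstream of the start, outside the promoter window, which held no match. For Nars and Cars no promoter window was used here.

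Lower values were found at Lars, Vars, Wars, Eprs and Dars. Lars, for the leucyl enzyme that also takes part in leucine sensing, had 5.06 (−log10 q 25.0, chromosome 18, 42261840 to 42262306). Vars, for the valyl enzyme, had 3 peaks. They were 2.40 over its start, 3.76 with its summit 767 bp into the gene, and 4.49 for a peak with its summit at −583 bp from the start of Vars, which the authors assigned to the neighbour D17H6S56E-5. Wars, for the tryptophanyl enzyme, had 2 peaks of 4.00 and 3.82 at different starts. Eprs, for the glutamyl-prolyl enzyme, had 3.11 (−log10 q 8.57), below the median peak of the list at 3.30, and Dars, for the aspartyl enzyme, had 2.44 (−log10 q 3.06). Both of these peaks began downstream of the start, by 48 and 45 bp.

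**Figure D3:**
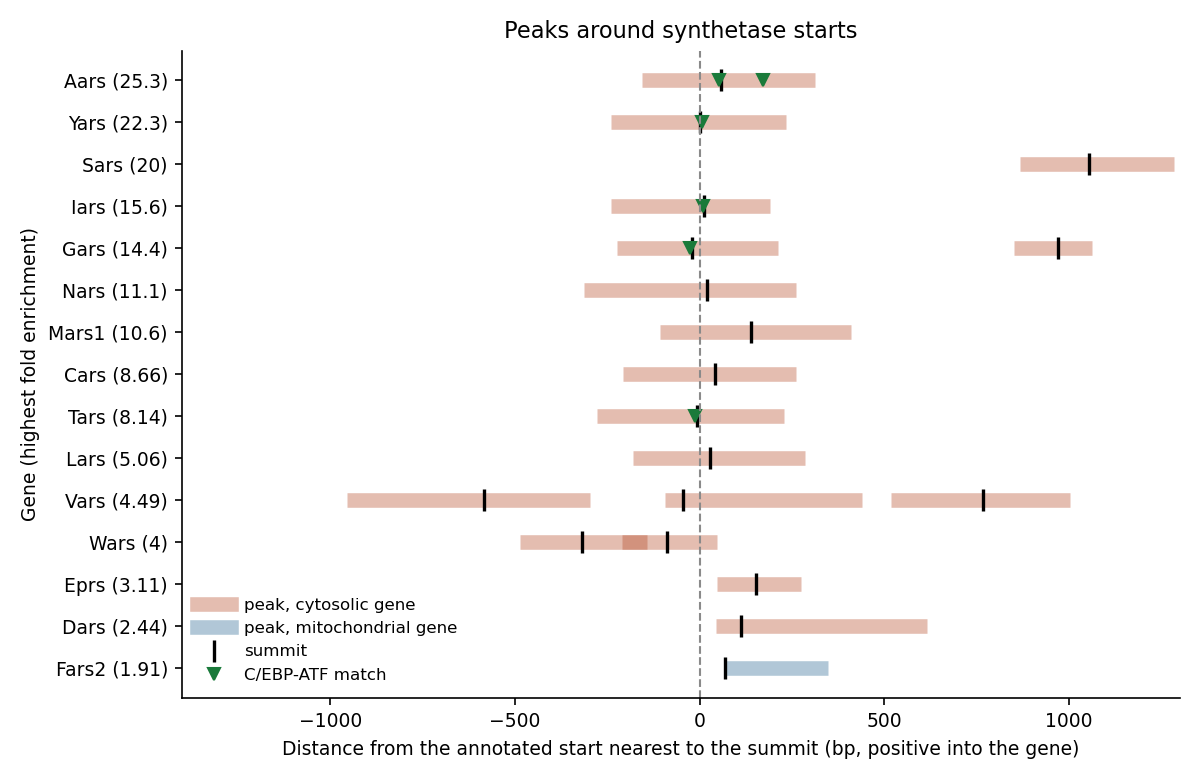
Span of each promoter peak of the 15 genes (bars), its summit (black tick) and the centres of C/EBP-ATF matches (triangles), by distance in bp from the annotated start nearest to the summit (horizontal axis); genes are ordered by highest fold enrichment, given in brackets. The strongest peak of 11 of 14 cytosolic genes covers the start of the transcript to which it was assigned or, for Yars and Vars, of the neighbour's transcript; Sars lies 867 bp or more inside the gene, and each of the 5 genes with triangles has 1 of them at its summit. Matches were searched in RefSeq promoter windows alone, so a bar outside a window, or at a gene without one, can have no triangle.

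The strongest peaks of the cytosolic genes were 227 to 658 bp wide with a median of 468 bp, beside 261 bp over the whole list. The list holds peaks of every class and strength, so these medians are of unlike sets. The summit lay within 100 bp of the nearest annotated start in 9 of 14 genes. For Aars that was the start of its assigned transcript.

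No promoter peak was found at the other cytosolic genes, Farsa, Farsb, Hars, Kars, Qars and Rars. Kars, like Gars, serves both compartments, for lysine. Hars and Hars2 share a promoter region, with annotated ends 3 bp apart, and neither had a peak. Kars, Qars and Rars belong to the multi-synthetase complex, a cytosolic particle that holds several of these enzymes together. Of the 8 complex members, 5 had a promoter peak, namely Iars, Mars1, Lars, Eprs and Dars, with a median of 5.06 for those with one. Of the 12 cytosolic genes outside the complex, 9 had one, with a median of 11.1. The exact intervals of these shares overlap widely, at 24.5 to 91.5% and 42.8 to 94.5%.

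Among mitochondrial genes the peak of Fars2, for mitochondrial phenylalanyl-tRNA synthetase, was near the floor of the list. Its fold enrichment was 1.91, weaker than all but 1.91% of the peaks, and its −log10 q was 1.07, under the 1.30 that a q of 0.05 gives (chromosome 13, 36117709 to 36117990). The peak did not overlap the RefSeq promoter window of the gene. The gene shares its start region with Lyrm4, whose start lies 286 bp away. No promoter peak was found at Aars2, Cars2, Ears2, Hars2, Iars2, Lars2, Mars2, Nars2, Pars2, Rars2, Sars2, Tars2, Vars2, Wars2 or Yars2.

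RefSeq promoter windows of 300 bases (250 before the start and 50 after) were found for 28 members. TGATGNAA was searched on both strands. It stood in 5 of 13 cytosolic windows, or 38.5% (exact 95% interval 13.9 to 68.4), and in 0 of 14 mitochondrial genes' windows, which allows up to 23.2%. Of all 32851 windows in the table, 3.97% held it, a share within the mitochondrial interval. The intervals of both groups overlap, and their difference was not tested. Of the 14 cytosolic genes with a promoter peak, Sars, Mars1, Eprs and Dars had a window without a match, and Cars, Lars, Nars, Vars and Wars had no window here. The stricter TGATGCAA, a subset of those matches, stood in 4 of 13 cytosolic and 0 of 14 mitochondrial genes' windows, beside 0.895% of all windows. The cyclic AMP response element TGACGTCA was in 0 windows of either group, beside 1.79% of all. Those counts of 0 allow up to 24.7% of cytosolic and 23.2% of mitochondrial windows. The AP-1 motif TGANTCA was in 1 cytosolic window, that of Qars, beside 7.81% of all, and it overlapped no other match. Over windows of protein-coding genes alone, the shares were 3.6% for TGATGNAA, 0.865% for TGATGCAA, 2.23% for TGACGTCA and 6.99% for TGANTCA. A match is a string of letters and does not show binding. GC content was close in both groups, with medians of 56.0% over the cytosolic and 58.1% over the mitochondrial windows.

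The summit of a member's peak fell inside the promoter window in 5 genes, Aars, Yars, Iars, Gars and Tars, and these were the 5 with a match. The nearest match lay 0 to 4 bases from the summit in each. The other 8 cytosolic windows held neither. Over the whole list, 1167 peaks had their summit in a promoter window, and 4.28% of those windows held TGATGNAA. The share was 18.4% of the 114 that were among the 455 strongest of the list and 2.75% of the other 1053. The 5 synthetase peaks are part of those 114 and count in their share and median. A match was present in 21 of those 114 and in 29 of the rest. Over these peaks alone, its median distance from the summit was 5.0 and 124 bases.

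**Figure D4:**
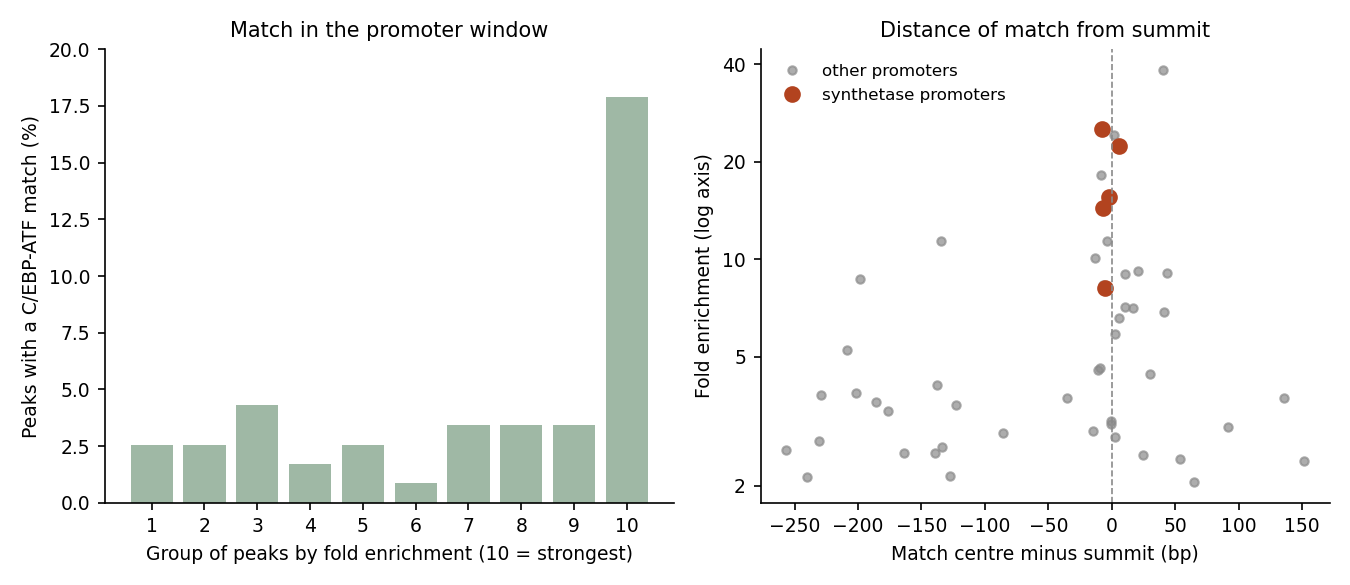
Left, percent of peaks whose promoter window holds TGATGNAA (vertical axis) in 10 groups of nearly equal size by rising fold enrichment (horizontal axis), over 1167 peaks with a summit in a window; the group with the strongest peaks reaches 17.9% and the others 0.862 to 4.31%. Right, fold enrichment (vertical log axis) by distance of the match centre from the summit in bp (horizontal axis), for 50 peaks with a match. The 5 synthetase promoters (red) lie between 8.14 and 25.3, with match centres −7.5 to 5.5 bp from the summit. The nearest base of each match is 0 to 4 bases from the summit.

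Other genes that work around the synthetases were looked up by the same rule. Of 22 such genes in the gene table (Ears1 matched none), 4 had a promoter peak, or 18.2%, near the background of 13.2%. Eef1a1, the elongation factor that delivers charged tRNAs to the cytosolic ribosome, had the strongest at 6.43 (−log10 q 50.4). Lactb2 had 3.60 and Impact, an inhibitor of GCN2 activation, had 3.07. Aimp1, a scaffold of the multi-synthetase complex, had 2.36 through a peak assigned to its neighbour Tbck, and the other scaffolds Aimp2 and Eef1e1 had none. No promoter peak was found at Eif2ak4, which encodes GCN2, or its partner Gcn1. None was found at Gatb, Gatc and Qrsl1, for the mitochondrial enzyme that makes glutaminyl-tRNA, at Mtfmt, or at Tufm, the mitochondrial counterpart of Eef1a1.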

How the data were processed

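ATF4 ChIP-seq was done on 2 samples of CD4+CD25+ mouse T cells, with 2 inputs. Per the submitters' processing notes, Trim Galore, Bowtie2, MACS2 and deepTools were used with build mm10. Neither versions nor any pooling of replicates are stated in the labels. The deposited list holds, for each peak, the authors' fold enrichment, −log10 q, score and gene assignment, in the layouts of MACS2 and ChIPseeker. Starts were raised by 1, and the deposited distance to the start site was then recovered in 4544 of 4544 peaks.

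Starts of genes came from a RefSeq promoter table (GRCm38.p6, the coordinates of mm10) and from the transcripts the authors assigned. Genes in neither were searched at both ends of their span in the RefSeq gene table. All 37 symbols matched that table, and 28 the promoter table, from which the sequences come. Some sequences and genes are not reported here. The promoters of Mars1 and Fars2, which the rule for sequences includes, are not shown because their peak summits lie outside the window. The members and gene lists were chosen with earlier results of these data known. No test was made. Intervals are exact at 95% and cover counting error within the list. The searches were tested on simulated data. All members are named. Alternatives varied the assignment of peaks, the promoter definition, the thresholds and the members. Intervals came from scipy 1.17.1, tables from pandas 2.3.3 with numpy 2.4.6, and figures from matplotlib 3.10.9, all under Python 3.11.15.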

Additional observations from a re-analysis of the deposited data

How the results depend on the processing

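The list has no values per sample, so no replicate could be left out. No paired analysis was possible because the result comes from no test. Under 11 alternatives the count of cytosolic genes with a promoter peak ran from 9 to 14, against 14. It stayed within 1.5 times of 14 in 10 of them and fell to 9 with the 455 strongest peaks alone. The mitochondrial count of 1 was 0 with a −log10 q of at least 3, with peaks at or above the median fold enrichment, and with the 455 strongest peaks, so that no median could be given under these 3. It was 1 in the other 8. The cytosolic median fold enrichment ran from 8.66 to 14.4. With peaks over a start alone, 11 cytosolic genes counted, and without Gars and Kars 13 of 18 did. Counting Tarsl2 as cytosolic gave 14 of 21. The share of promoters with the stricter TGATGCAA was 30.8% against 38.5% for cytosolic genes and 0% for mitochondrial genes under both motifs. The motif search in whole peak intervals was not run, since no genome sequence was used.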

Other observations

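Peaks also lay inside the bodies of mitochondrial synthetase genes, where they were assigned to neighbours and did not count as promoter peaks. A peak of fold enrichment 5.49 and −log10 q 7.48 lay in an intron of Fars2, 331096 bp into the gene (chromosome 13, 36448811 to 36448984), and was assigned to Gm8277. Fars2 thus had a stronger peak in its body than at its promoter, at 1.91. A peak near the end of Lars2 (chromosome 9, 123461883 to 123462110) was assigned to Gm40586. Its fold enrichment of 2.29 was low for a −log10 q of 88.0, while the Nars promoter had 11.1 at 82.7.

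Besides the 5 synthetase promoters, the 21 peaks among the 455 strongest with a TGATGNAA in the promoter window included those of Chac1 at 38.4, Herpud1 at 24.1, Asns at 10.1, Trib3 at 9.18 and the amino acid transporter gene Slc1a4 at 8.34. They were named after their values were seen. The match lay 0 bases from the summit at Herpud1, 3 at Slc1a4, 10 at Asns, 17 at Trib3 and 37 at Chac1. Of the 21 peaks, 16 had the match within 20 bases of the summit. It lay farthest at Gadd45g (11.4) and Srgn (8.68), by 131 and 195 bases.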
